A study of Rattus norvegicus with 36 samples.

Results

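The 6 vehicle livers were those of male Harlan Sprague Dawley rats given corn oil alone, and they were 6 of 36 livers in the series. They were chosen by their treatment label and not by a measured value, although earlier results of these data were known. The other 30 animals had PBDE47, a brominated flame retardant, in the same corn oil at 485, 48.5, 4.85, 0.485 or 0.0485 mg/kg, with 6 animals per dose. All animals were 7 weeks old at the start, were gavaged on 5 consecutive days and were killed 1 day after the last dose. The left liver lobe was used, with 1 Affymetrix 3' expression array per animal. Corn oil is itself a fat load that every group shared, so no animal was untreated in that sense. Sprague Dawley rats are an outbred stock, and feed and water were freely available. The vehicle animals are called animals 1 to 6 after the replicate number in their label.

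The hepatocyte makes most of the proteins of blood plasma, and it also stores and releases fuel, makes cholesterol and bile acids, and detoxifies foreign compounds. Its secretory genes are transcribed at a high and steady rate. Other liver genes follow the time of day, the last meal, stress hormones or cytokines, and the growth hormone pulses that differ between the sexes. Some genes also differ by inherited variants between animals of an outbred stock.

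The values are log2 RMA signals of 31042 probe sets, in which a difference of 1 is a doubling of signal. They covered 14217 genes, each represented by its brightest probe set. The medians of the 6 vehicle arrays ran from 5.32 to 5.38, and 9657 genes had a vehicle mean of at least 5.32, below which signal says little about expression. The vehicle arrays correlated with one another at 0.993 to 0.995 over probe sets. Probe sets differ in affinity, so an order of brightness is an order of signal and not of molecules. The tissue was liver by its markers: the 9 measured hepatocyte markers ran from 11.53 to 15.06, while Prss1 and Prss2 of the exocrine pancreas stood at 3.50 and 3.12 and Acta1 and Ckm of muscle at 3.23 and 4.36. The elastase Cela1 at 10.38 and Stac3 at 10.09 were the bright members of the pancreas and muscle lists. In bulk tissue, fewer cells of a type and less RNA per cell cannot be told apart.

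Secreted plasma proteins headed the vehicle livers. Albumin (Alb), the main carrier protein of plasma, was brightest at a mean of 15.06 (n = 6). It had the identical value 15.05 in 5 animals and 15.07 in animal 3, which equal the lowest and highest array maxima, so its spread cannot be read. It was followed by the thyroxine and retinol-binding protein carrier transthyretin (Ttr) at 14.65 ± 0.02 (SD, n = 6). The vitamin D binding protein Gc and apolipoprotein C3 (Apoc3) both stood at 14.56, haptoglobin (Hp), which binds free hemoglobin, at 14.50, and the protease inhibitor Serpina1 at 14.48. The remaining 20 brightest genes were, in order, COX2, Rup2, Apoe, Fgg, Ambp, Apoh, Ahsg, Rbp4, C3, Mgst1, Apoc1, Fabp1, Serpina3l and Fgb, the last at 14.29. Among these, COX2 is the mitochondrially encoded cytochrome oxidase subunit, Fabp1 is the liver fatty acid binding protein, and Fgg and Fgb are fibrinogen chains.

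Of the 50 brightest genes, 18 were on the list of 24 plasma proteins and 8 on the list of 12 apolipoproteins. The list of male-type cytochromes and growth hormone genes gave 4, among them Cyp3a2 at 14.18 ± 0.06 and Cyp2c11, the main male-specific cytochrome P450 of rat liver, at 13.77 ± 0.08. The ethanol-metabolizing Cyp2e1 stood at 13.93 ± 0.06 and Igf1, the growth hormone effector, at 13.72 ± 0.07, an SD that was 0.02 without animal 3. The 50th gene was plasminogen (Plg) at 13.63, and the next, Ces1c, was at 13.61.

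The brightest genes were also the steadiest. The median SD between animals was 0.040 for the 50 brightest genes, against 0.127 for the 9657 genes, and 49 of the 50 had an SD under 0.1. Apolipoprotein A2 (Apoa2) was the widest of them, with a lowest value of 13.83, a median of 13.93 and a highest value of 14.11. The 10 least variable genes with a mean of at least 10 included Gc, Rbp4, Ttr, Apoc3, Cyp2c13, Fgg and Rup2, besides Alb at its upper limit. The other two were the clathrin light chain Clta at 11.08 ± 0.02 and the signal peptidase subunit Sec11a at 10.37 ± 0.02. The plot of spread against level shows this narrowing at the top. RMA gives all arrays nearly the same distribution, whose highest vehicle values lay between 15.05 and 15.07, and its part in the small spread of the brightest genes was not tested.

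**Figure D1:**
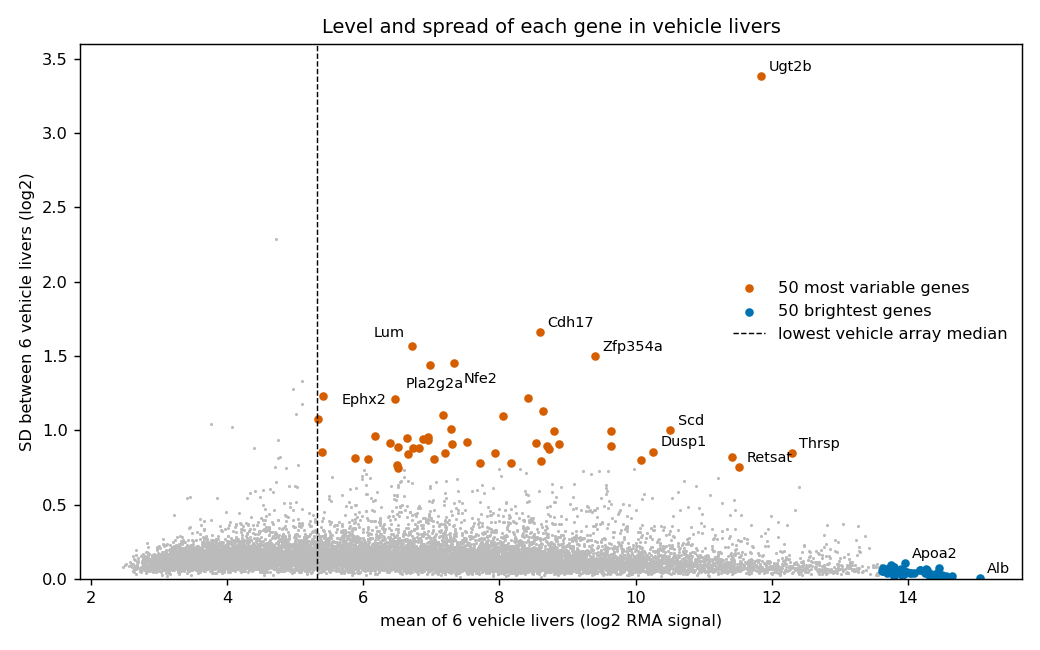
Spread against level for 14217 genes in vehicle liver: x, mean log2 RMA signal of 6 animals; y, SD between them (log2). Grey points are single genes, orange the 50 most variable and blue the 50 brightest genes. The blue points lie at or below an SD of 0.11, and Ugt2b stands alone at 3.38.

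Most genes varied little between these animals. Of the 9657 genes, 90.0% had an SD under 0.25, and 337 genes (3.49%) spanned a range of at least 1, a doubling. A range of at least 2 was seen for 51 genes. Over all 31042 probe sets the median vehicle SD was 0.132. It was 0.147 for probe sets at a level of 4 to 6 and 0.073 for those at 12 or more.

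The most variable gene was Ugt2b, a UDP-glucuronosyltransferase that conjugates steroids and drugs. Animal 2 stood at 4.95, below the array medians, and the other 5 animals stood at 13.16 to 13.43. The SD was 3.38 with animal 2 and 0.11 without it. The second probe set of Ugt2b gave the same picture, with 3.15 in animal 2 and 8.87 to 10.11 in the others.

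Cdh17, the liver-intestine cadherin, came next with an SD of 1.66. It stood at 6.53 and 6.47 in animals 4 and 5 and at 9.01 in animal 3, 9.57 in animal 1 and 9.97 in animal 6, with animal 2 slightly higher still, so the 6 animals formed separate low and high sets. Lumican (Lum), a proteoglycan of collagen fibrils, had an SD of 1.57, with 4.04 in animal 2 as the lowest, a median of 6.95 and 8.22 in animal 6 as the highest. Without animal 2 the SD of Lum was 0.97. Zfp354a, a zinc finger protein, was next in rank, with 11.39 and 11.03 in animals 4 and 6 and 8.00 to 9.49 in the others.

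Nfe2, a transcription factor best known from blood cell precursors, stood at 4.55 in animal 5 and at 6.98 to 8.37 in the others, and its SD of 1.45 was 0.56 without animal 5. Pla2g2a, a secreted phospholipase A2 of inflammation, stood at 9.84 in animal 3 and at 5.73 to 6.68 in the others, with SDs of 1.44 with animal 3 and 0.39 without it. Ephx2, the soluble epoxide hydrolase, also stood apart in animal 3, at 8.94 against 5.88 to 6.14, and its SD of 1.21 was 0.10 without that animal. The remaining 20 most variable genes were Ly6al, Egr1, Fgf21, Usp2, Gadd45g, Fabp4, Clca2, Scd, Tsku, Inmt, Rprm, Itgal and Cav1, with SDs from 1.23 to 0.95. The 50th gene, Mllt3, had an SD of 0.745, and the next, Esrrg, one of 0.741.

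**Figure D2:**
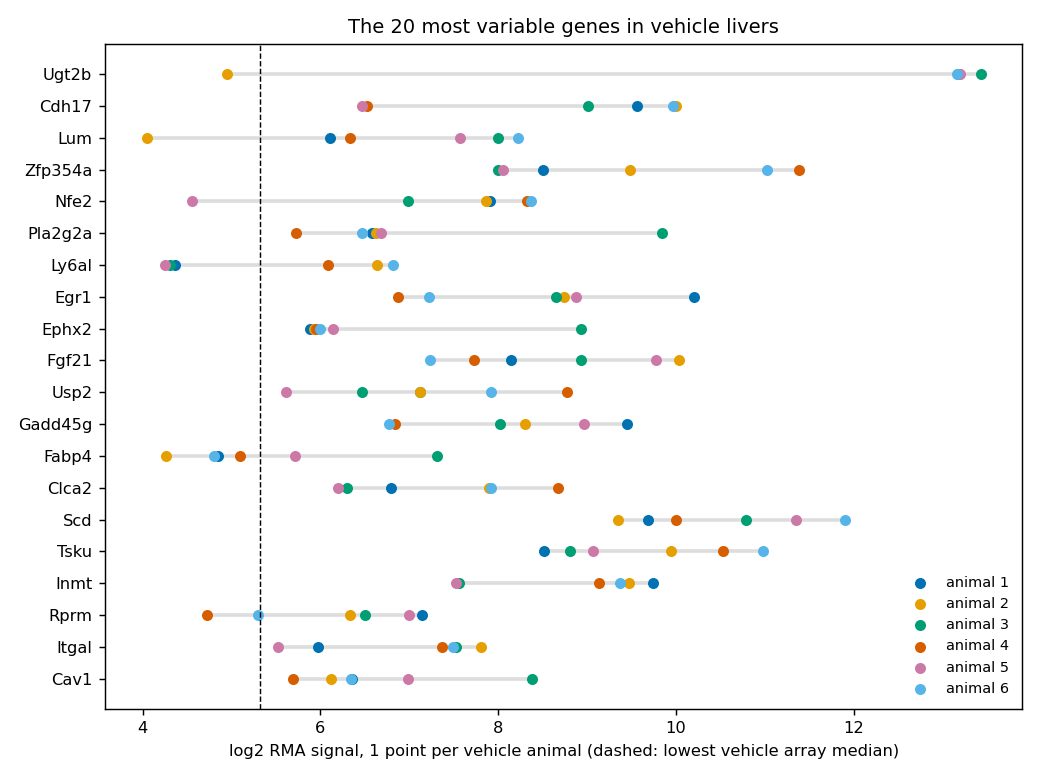
The 20 most variable genes in vehicle liver, in order of SD: x, log2 RMA signal; 1 coloured point per animal, the grey bar spanning the range. A lone point sets the range of Ugt2b (4.95 in animal 2), Pla2g2a (9.84 in animal 3) and Ephx2 (8.94 in animal 3), while Cdh17, Zfp354a and Ly6al split into separate sets of animals.

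Some of these genes sat at separate levels in all 36 animals. A search for probe sets with a gap of at least 1 between adjacent animals, with vehicle animals on both sides, found 12 probe sets, 9 of them of a single gene and covering 8 genes. The gap chose these probe sets, so it is given as a description. Ugt2b was low in 3 of 36 animals, 1 each in vehicle, 0.485 and 48.5 mg/kg, with means of 5.22 in the low and 13.31 in the high animals. Ephx2 was high in 5 of 36, 1 in each group except 485 mg/kg, with means of 9.21 against 6.03.

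Retsat, which saturates retinol, was low in 6 of 36 animals, 1 in each of the 6 groups, at 9.98 to 10.27, and its vehicle animal was animal 1 at 10.09. The 30 others stood at 11.42 to 12.60. Abhd3, a phospholipase of the abhydrolase family, was the reverse: it stood below 4 in 31 animals and at 7.37 to 8.06 in 5, of which animals 2 and 3 were vehicle animals. The class II antigen gene RT1-Bb was high in 10 of 36, with animal 4 as its single vehicle member at 6.21 against 4.03 to 4.38. The brighter RT1-Bb probe set did not show this: animal 4 was its lowest, at 4.81, and animal 5 its highest, at 5.41. S100g, an intestinal calcium binding protein, was high in animals 1 and 2 (6.10 and 5.76) and in 2 dosed animals. Cdh11 and Pla2g2a were high in the same 2 animals, vehicle animal 3 and an animal at 48.5 mg/kg. The other probe sets of Abhd3 and Cdh11 lay below the array medians in all vehicle animals and did not show the step.

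**Figure D3:**
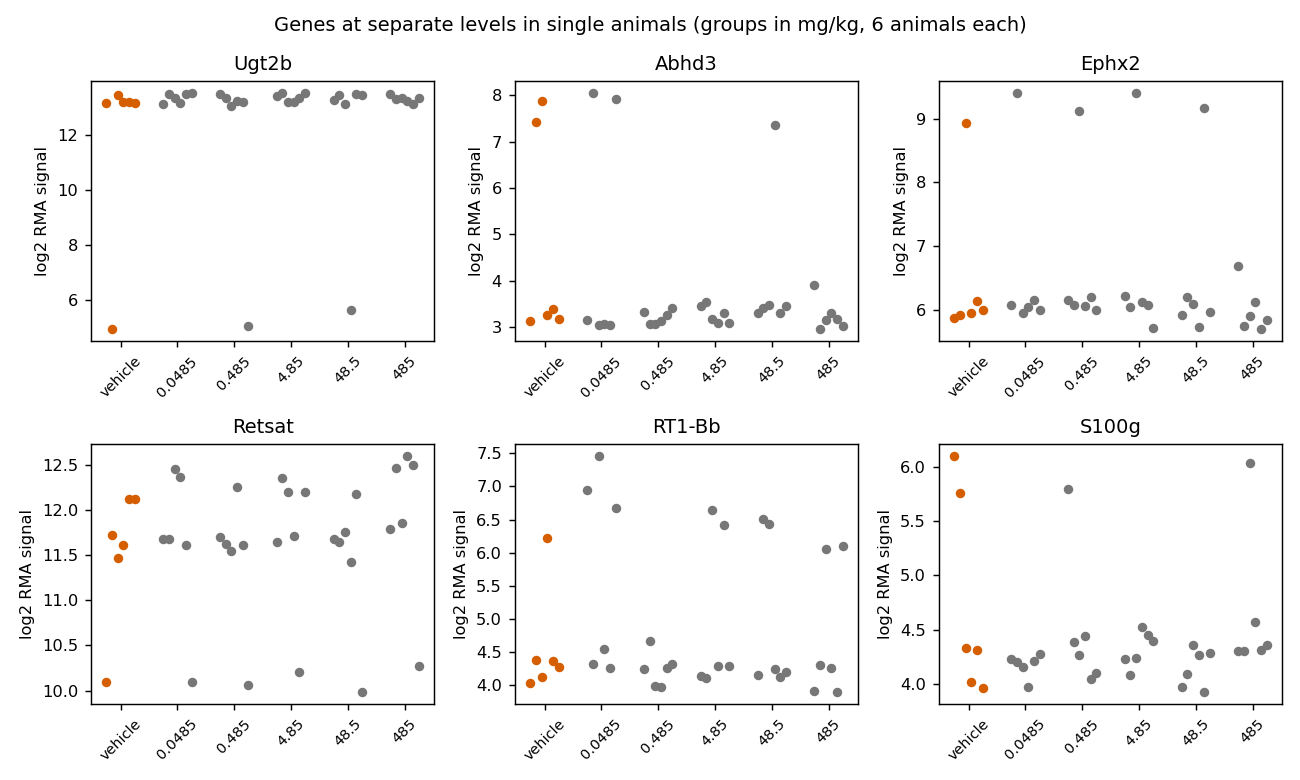
Genes at separate levels, 1 point per animal, in the 6 groups (x, dose in mg/kg; y, log2 RMA signal); vehicle animals are orange. Single animals of several groups share the outlying level, such as 1 low Retsat animal in each of the 6 groups and 3 low Ugt2b animals in all.

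Several sets of variable genes followed the same animals. The animal profiles below were picked after the vehicle values were seen, so they are descriptions. Animal 3 was the highest animal for 15 of the 50 most variable genes, and animals 4 and 5 were each the lowest for 14. Over the 9657 genes, animal 3 lay at least 0.5 above all others for 33 genes and at least 0.5 below for 7, while the counts in the other animals ran from 13 to 21 above and from 13 to 25 below.

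Several circadian clock genes shared an order of animals. The clock runs on Bmal1, Npas2 and Clock, which switch on Per, Cry and the PAR-domain factors Dbp, Hlf and Tef, while Nfil3 opposes those factors at their target sites. Dbp stood at 9.93 in animal 4 and 9.42 in animal 6, at 8.15 to 8.77 in animals 1 to 3 and at 7.49 in animal 5. Usp2, a ubiquitin protease under clock control, kept that order, with 8.78 and 7.92 in animals 4 and 6 and 5.61 in animal 5. Its second probe set also had animals 4 and 6 highest (8.06 and 7.06), but was lowest in animal 3 (5.97) and not in animal 5 (6.27). Bmal1 ran the other way, from 5.04 in animal 4 to 6.94 in animal 5, as did Npas2 (5.56 and 7.01) and Nfil3 (6.62 and 8.13). Hlf, Tef and Nampt, also lowest in animal 5 and highest in animal 4, spanned 7.63 to 8.83, 7.51 to 8.26 and 8.33 to 9.59. Nr1d2 was also highest in animals 4 and 6 (10.04 and 9.81) and lowest in animal 5 (9.42), but its other probe sets were lowest in animal 2. Per1 ran in a narrow span from 6.30 in animal 5 to 6.61 in animal 4 and 6.89 in animal 6. Cry1 had animals 6 and 4 highest (6.69 and 6.53) but animal 1 lowest (6.03). Other clock genes did not follow this order. Nr1d1 was lowest in animal 6 (7.08), and Rora was lowest in animal 2 (6.50). Bhlhe40 was highest in animal 1 (9.21) and lowest in animal 6 (8.15). Per2 spanned only 7.40 to 7.59. Over the list, 8 of 18 were highest in animal 4 and 8 lowest in animal 5, against 23.2% and 15.6% of the 9657 genes. Of the 18 clock genes above 5.32, 9 spanned a range of at least 1, and their median SD was 0.32. Hlf, Tef, Nampt, Npas2, Nfil3, Per2, Bhlhe40, Cry1 and Rora were named after their values were seen.

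The metabolic genes Thrsp, Aacs, Tsku and Cyp7a1 had animals 4 and 6 as their highest animals too. Thrsp, a thyroid hormone and carbohydrate responsive lipogenic gene, stood at 13.24 in animal 6, 12.82 in animal 4 and 10.75 in animal 5, with the other 3 animals at 12.23 to 12.38. All 3 Thrsp probe sets placed animal 5 lowest. Cyp7a1, which commits cholesterol to bile acids, stood at 12.21 and 11.74 in animals 4 and 6, 10.42 in animal 5 and 10.59 to 11.15 in the others. Tat, a glucocorticoid-induced amino acid enzyme, spanned 8.81 to 10.53 with the same 2 animals highest. Of the 50 most variable genes, 9 (18%) had animals 4 and 6 as their 2 highest, against 13.1% of the 9657 genes.

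Another 8 of the 50 (16%, against 7.78% of the 9657 genes) had animals 4 and 6 as their 2 lowest. These were Pla2g2a, Egr1, Fgf21, Gadd45g, Rprm, Pdk4, Slc6a6 and Cish. Fgf21, a fasting hormone of the liver, stood at 7.24 in animal 6 and 7.73 in animal 4 and at 10.04 in animal 2 as the highest. Gadd45g, a growth arrest gene, stood at 6.77 and 6.84 in animals 6 and 4 and at 9.45 in animal 1. Cish, a feedback inhibitor induced by growth hormone through STAT5, kept a similar order, with 6.97 and 6.60 in animals 6 and 4 and 8.68 in animal 1. Animal 4 had the largest median deviation from the vehicle mean over all probe sets, 0.099 against 0.081 to 0.090 in the others, and the largest difference between 3' and 5' Actb control signals, 1.46 against 1.13 to 1.29. Animal 6 had the smallest Actb difference, 1.13. For Gapdh this difference was likewise largest in animal 4 (0.01) and smallest in animal 6 (-0.14). The part of RNA quality in the order of animals was not tested.

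Most genes of cholesterol and fat synthesis had their highest signal in animal 6. Of the 16 genes for cholesterol synthesis and uptake, 13 were highest in animal 6 and 11 lowest in animal 5, against 16.4% and 15.6% of the 9657 genes. The squalene epoxidase Sqle, a flux-controlling step, stood at 10.18 in animal 6, 8.86 in animal 5 and a median of 9.51. Insig1, a sterol-regulated brake on this pathway, stood at 10.45 in animal 5 and at 11.37 to 11.97 in the others. Of 18 lipogenic genes, 10 were highest in animal 6 and 9 lowest in animal 2, against 16.4% and 14.8% of the 9657 genes. The stearoyl-CoA desaturase Scd had the widest spread of the list, with 9.35 in animal 2, 9.69 in animal 1, 11.35 in animal 5 and 11.90 in animal 6. Fatty acid synthase (Fasn) spanned 9.01 to 10.27, with animals 3 and 6 high.

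Immediate early genes, which respond within minutes to hormones or tissue stress, were high in animal 1. Of 25 genes on that list, 12 were highest in animal 1, against 10.7% of the 9657 genes. Egr1 stood at 10.21 in animal 1, 8.65 to 8.87 in animals 2, 3 and 5, 7.22 in animal 6 and 6.87 in animal 4. The phosphatase Dusp1 stood at 11.67 in animal 1 with a median of 10.11, and its second probe set also had animal 1 highest, at 8.96. Jun at 10.47 and the matricellular gene Ccn1 at 8.03 were likewise highest in animal 1. The median deviation of the whole list was 0.18 in animal 1, 0.22 in animal 5 and -0.24 in animal 4. The list had a median SD of 0.44, and 16 of its 25 genes spanned a range of at least 1. Chac1, a target of the amino acid stress factor ATF4, followed another order, with 9.25 in animal 2 and 6.91 to 7.86 in the others.

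**Figure D4:**
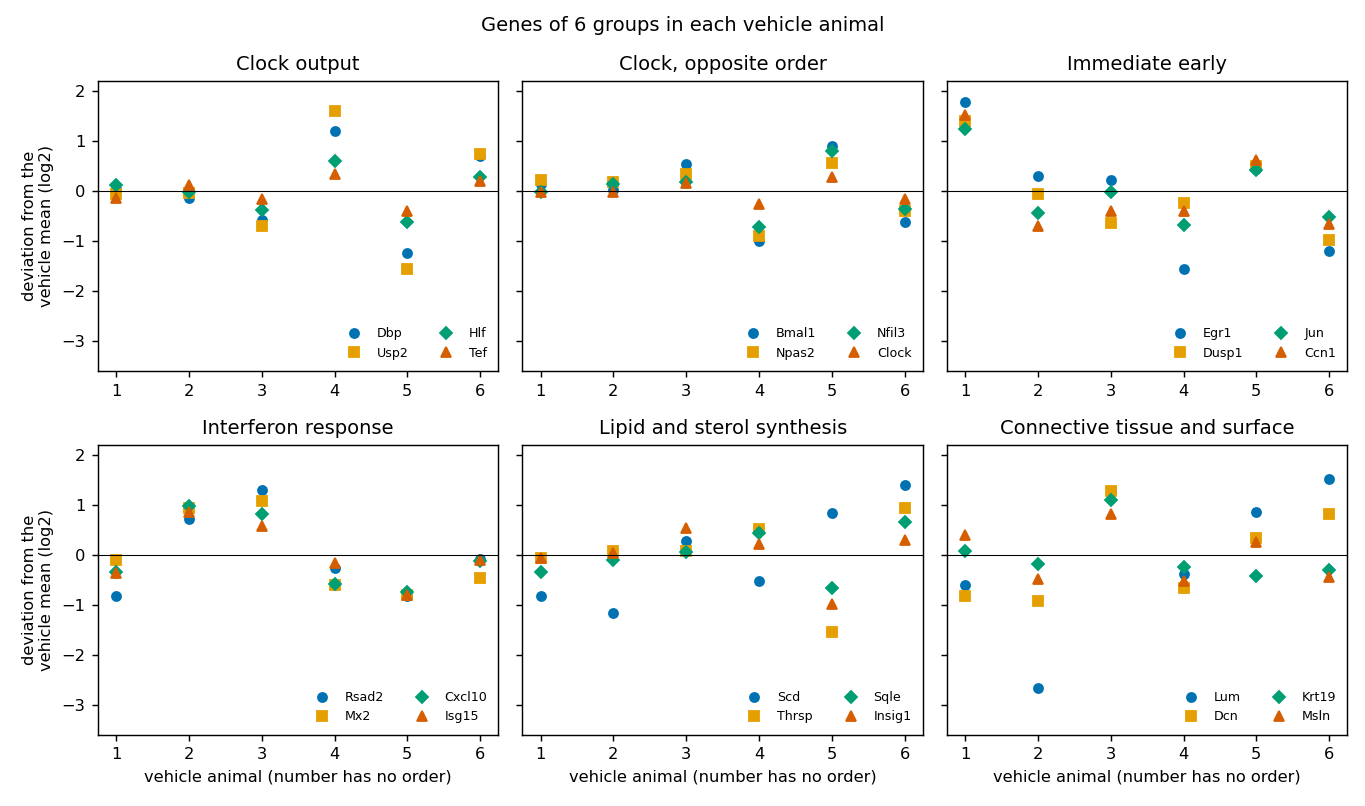
Deviation from the vehicle mean (y, log2) in each vehicle animal (x) for 4 genes in each of 6 groups. Dbp, Usp2, Hlf and Tef are higher in animals 4 and 6, where Bmal1, Npas2, Nfil3 and Clock are low; the interferon genes are high in animals 2 and 3, and the immediate early genes in animal 1.

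Interferon genes followed animal 2. Type I interferon acts through the factor ISGF3, which binds a short element in the promoters of antiviral genes. A sequence of this kind (GAAA, any 2 bases and GAAA again, on either strand) was found in the 250 bases upstream of the start site of 14 of the 23 list genes with a RefSeq promoter (60.9%), and in 902 of all 27457 promoters (3.29%). The match was not used to choose the list. It was also found in steady members such as Ifi27, Ifih1 and Ifi44, with vehicle SDs of 0.14, 0.13 and 0.12. The variable genes Mx2 and Isg15 were not among the 14. A link between the match and the spread was not tested. The clock list was searched in the same way for other sequences. CACGTG was found in 3 of 16 promoters (18.75%, against 5.79% of all promoters). TTATGTAA was found only in that of Per2 (6.25%, against 0.816%). The stretches of 4 variable interferon list members are shown with the match in capitals, on the gene's strand, from RefSeq on GRCr8. TTTC runs mark a match read on the opposite strand.
Rsad2, chr6:48788218-48788307, minus strand: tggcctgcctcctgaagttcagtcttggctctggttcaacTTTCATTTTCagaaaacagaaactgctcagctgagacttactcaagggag
Cxcl10, chr14:15988816-15988872, plus strand: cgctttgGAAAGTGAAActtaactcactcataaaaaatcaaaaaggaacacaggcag
Ifit3, chr1:241527242-241527325, plus strand: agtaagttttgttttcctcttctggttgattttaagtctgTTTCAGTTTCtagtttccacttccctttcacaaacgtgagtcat
Irf7, chr1:205800043-205800132, minus strand: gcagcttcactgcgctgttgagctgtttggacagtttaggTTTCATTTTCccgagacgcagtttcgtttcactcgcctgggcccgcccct

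Rsad2, which encodes the antiviral protein viperin, stood at 9.23 in animal 3, 8.66 in animal 2 and 7.11 to 7.85 in the others. Mx2, an antiviral GTPase, stood at 8.12 and 7.97 in animals 3 and 2 and at 6.25 to 6.94 in the others, although its second probe set was highest in animal 4 (7.10). The chemokine Cxcl10 stood at 7.58 in animal 2, 7.42 in animal 3 and 5.85 in animal 5. Ifit3 spanned 5.29 to 6.96, highest in animal 3, and the interferon regulatory factor Irf7 spanned 8.04 to 9.11, highest in animal 2. Of the 29 interferon genes above 5.32, 17 were highest in animal 2 and 19 lowest in animal 5, against 21.2% and 15.6% of the 9657 genes. The median deviation of the list was 0.45 in animal 2 and -0.28 in animal 5.

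Most antigen presentation genes and macrophage markers shared that animal. Of 13 major histocompatibility genes, 10 were highest in animal 2 and 1 was lowest there, with a median deviation of 0.34. Of 11 Kupffer cell and macrophage markers 7 were highest there, with a median deviation of 0.26. The 2 markers Adgre1 (6.75) and Mrc1 (8.94) were lowest in animal 2. Over the 9657 genes, 21.2% were highest and 14.8% lowest in animal 2. The 5 T and NK cell markers above 5.32 had a median deviation of 0.39 in animal 2. Lcn2, an acute phase protein that binds bacterial iron carriers, stood at 6.94 and 6.74 in animals 2 and 3 and at 4.82 in animal 5. The list of 16 acute phase genes as a whole moved less, with medians from -0.09 to 0.08. The poly-A controls Dap, Lys and Phe were highest on the array of animal 2. Their part, and that of immune cell number, in the interferon values was not tested.

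Several connective tissue and surface cell markers were highest in animal 3. Of 14 stellate cell and fibroblast markers 6 were highest there, against 13.7% of the 9657 genes. Their median deviation was 0.28 in animal 3, 0.24 in animal 5, 0.17 in animal 6, -0.23 in animal 2 and -0.35 in animal 4. The contractile markers Acta2 and Des did not share this, with 5.50 (the lowest animal) and 5.56 in animal 3. Decorin (Dcn), a collagen-binding proteoglycan, stood at 8.23 in animal 3, a median of 6.78 and a lowest value of 6.03 in animal 2. Col3a1, the fibrillar collagen of liver stroma, was highest in animal 5 at 11.85, with 11.73 in animal 3 and a lowest value of 10.81 in animal 4. The bile duct keratin Krt19 stood at 6.78 in animal 3 and at 5.25 to 5.75 in the others, and mesothelin (Msln), a marker of the liver's surface layer, at 7.32 and at 5.98 to 6.88. Fabp4 of fat cells and endothelium stood at 7.31 in animal 3 and at 4.26 to 5.72 in the others. Animal 3 was highest for 2 of 3 bile duct, 3 of 4 surface layer and 3 of 5 fat cell markers above 5.32. Others of these lists differed. Epcam was highest in animal 4 (9.29, with 9.14 in animal 3) and Krt8 in animal 5 (11.06). Cidea was highest in animal 2 (7.21, with 6.24 in animal 3). Lgals1, Cav1, Igfbp6 and Ccdc80 of stromal cells were highest in animal 3 as well. Cav1 stood at 8.39 there and at 5.69 to 6.99 elsewhere, and its other probe sets also had animal 3 highest. All 4 poly-A control RNAs were lowest on the array of animal 3, such as Thr at 8.27 against 8.73 to 10.09. Their part, and that of cell makeup, in these values was not tested. Lox, which crosslinks collagen, followed another order, with animal 1 highest at 9.82 and animal 4 lowest at 7.51.

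Growth hormone targets were mixed. The cytochromes Cyp2c11, Cyp2c13, Cyp2a2 and Cyp3a2 had SDs of 0.02 to 0.09, while Cyp2c12, named for a female-predominant cytochrome, spanned 10.16 in animal 2 to 12.33 in animal 4 in these males. Closely related Cyp2c transcripts may share its probes. Socs2, a feedback inhibitor of growth hormone signalling, stood at 9.08 and 8.98 in animals 5 and 3 and at 7.33 and 7.41 in animals 4 and 1. The urinary protein gene Obp3 spanned 12.48 to 13.56. Among drug metabolism genes the P450 reductase Por had the widest spread (SD 0.48, and 0.31 without animal 4), and the median SD of 28 genes was 0.19. Cyp1a1 and the efflux transporter Abcc3 were low at baseline, at 4.82 ± 0.11 and 5.27 ± 0.29. The metallothionein Mt2A spanned 12.82 to 13.72 and the iron hormone hepcidin (Hamp) 12.90 to 13.75.

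The housekeeping and plasma protein lists lay at the other end. The median SD was 0.062 for 12 ribosomal proteins, 0.064 for 25 respiratory chain subunits, 0.039 for 24 plasma proteins and 0.084 for 10 reference genes. The largest median SDs among lists of at least 10 genes were 0.44 for immediate early and stress genes and 0.37 for interferon genes. Lipogenesis (0.34) and the clock (0.32) came next. In the dosed animals the same 4 lists had median SDs of 0.45, 0.39, 0.33 and 0.25 within groups.

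**Figure D5:**
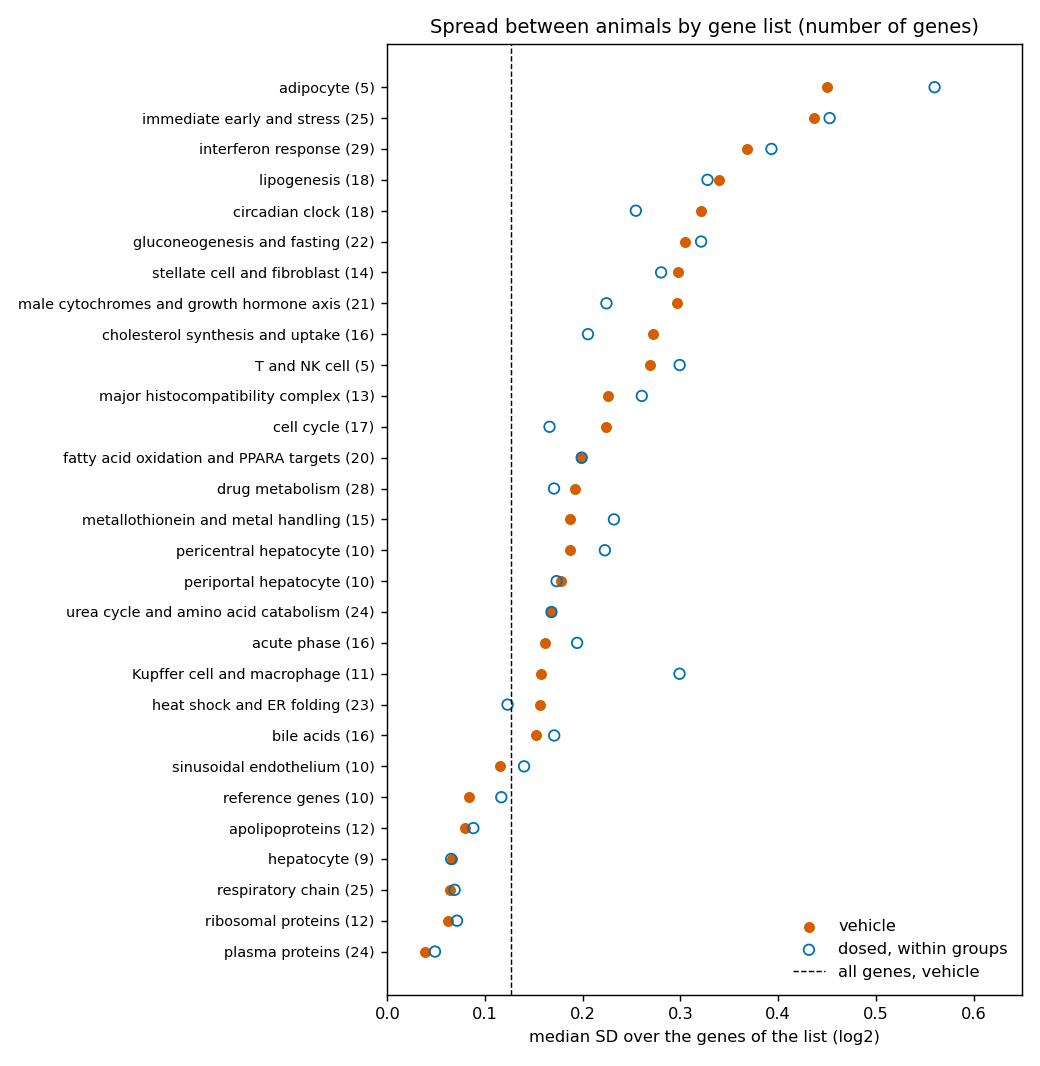
Median SD between animals (x, log2) over the genes of each list with at least 5 genes above 5.32 (number in parentheses). Filled points are the 6 vehicle animals, open points the 30 dosed animals with group means removed. Immediate early and stress, interferon, lipogenesis and clock genes lie right of the dashed line for all genes (0.127). Plasma protein, ribosomal and respiratory chain genes lie left of it.

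The dosed animals, which share no array with vehicle, gave a second view of the spread. All 50 of the most variable vehicle genes lay in the upper 5% of the within-group SD of the dosed animals, the lowest at rank 354 of 9657 (Mllt3). The 50 most variable genes of the dosed animals held 27 of them, 54% of each list. Their median SD was 0.91 in vehicle and 0.73 in the dosed animals. Ugt2b ranked first in both. Over the 9657 genes the Spearman correlation of vehicle and dosed SD was 0.643, across genes, which are not independent replicates. The vehicle ranking itself rests on 6 animals, and 16 of the 50 genes stayed among the 50 whichever animal was left out.

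A test of spread asked whether vehicle animals varied more or less than dosed ones. Each array's absolute distance from its group median was compared by limma, adjusted over 31042 probe sets. Vehicle was called wider for 2 probe sets (0.00644%) and narrower for 0, with 1038 at an unadjusted p under 0.05 (3.34%). One was Ube2j2, a ubiquitin-conjugating enzyme of protein quality control, with an SD of 0.24 in vehicle and 0.09 in dosed animals (mean distance 0.17 ± 0.03 SE larger in vehicle, limma adjusted p = 0.0308). Its vehicle values were 8.67 to 8.78 in animals 1, 3 and 5 and 9.11 to 9.19 in animals 2, 4 and 6. The other probe set is unnamed here and lay below the array medians. Without any single vehicle animal the limma count was 0, with 678 to 782 probe sets at an unadjusted p under 0.05. In simulated data with the vehicle SD raised 3-fold or 6-fold, 19% and 66% of the altered probe sets were called. False calls made up 8 of the 93 calls there. Moderate differences in spread were thus mostly not detectable with 6 animals.

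The 12 pairs of genes picked by hand because they moved together or apart in vehicle were then tested in the 30 dosed animals. Dose group means were removed, and values were permuted within groups 100000 times. Of the 12, 9 passed at an adjusted p under 0.05 by Pearson's r, and 7 by both r and Spearman's rho. Dbp was in several pairs, so the pairs are not independent. Other pairs of variable genes were not tested, so these counts have no background rate. The weakest vehicle correlations were those of Scd with Acly (r = 0.63) and Fgf21 with Pdk4 (r = 0.71). Dbp and Bmal1 had r = -0.99 in vehicle and r = -0.93 (rho = -0.92, permutation adjusted p = 8e-05 and 6e-05) in dosed animals, with the same sign in 5 of 5 dose groups. Dbp and Usp2 had r = 0.87 and rho = 0.88 there (permutation adjusted p = 8e-05 and 6e-05), again in 5 of 5 groups. The raw p of Dbp and Bmal1, 1e-05, is the smallest these permutations can give. Without the 2 animals farthest from the median of Dbp, r was -0.91 for Bmal1 and 0.87 for Usp2.

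Zfp354a and Tsku also moved together in dosed animals, with r = 0.73 and rho = 0.74 (permutation adjusted p = 0.00012 and 6e-05). So did the matrix genes Lum and Dcn (r = 0.75, rho = 0.78, permutation adjusted p = 9e-05 and 6e-05) and the stromal genes Cav1 and Lgals1 (r = 0.81, rho = 0.76, permutation adjusted p = 8e-05 and 0.000192). The lipogenic pair Scd and Acly had r = 0.62 and rho = 0.62 (permutation adjusted p = 0.0017 and 0.00156), but r = 0.48 (permutation adjusted p = 0.0894) in the 3 lowest doses alone. The last pair, Gadd45g and Cish, had r = 0.67 and rho = 0.59 (permutation adjusted p = 0.00187 and 0.00814). These 5 pairs had the same sign in 5 of 5 dose groups, and r without the 2 farthest animals ran from 0.55 to 0.76. The lowest r in a single dose group was 0.04 for Gadd45g and Cish, 0.16 for Scd and Acly and 0.26 for Cav1 and Lgals1. It was 0.42 for Lum and Dcn and 0.48 for Zfp354a and Tsku.

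Other pairs did not hold by both measures. Mx2 and Rsad2 had r = 0.59 and rho = 0.40 (permutation adjusted p = 0.00312 and 0.0652), with the same sign in 4 of 5 groups and r = 0.65 without the 2 farthest animals. Dbp and Nfil3 had r = -0.47 and rho = -0.42 (permutation adjusted p = 0.0228 and 0.0556), the same sign in 3 of 5 groups, and r = -0.39 without the 2 farthest animals. In the 3 lowest doses alone its r was -0.58 (permutation adjusted p = 0.0506). Thrsp and Aacs had r = 0.37 (permutation adjusted p = 0.0541), Fgf21 and Pdk4 r = 0.26 (permutation adjusted p = 0.218) and Egr1 and Dusp1 r = 0.20 (permutation adjusted p = 0.332). Their rho was 0.36, 0.33 and 0.19, with permutation adjusted p of 0.07, 0.11 and 0.361, and r without the 2 farthest animals was 0.25, 0.45 and 0.13.

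The baseline groups were last followed at the top dose in dosed arrays alone, with 485 mg/kg compared to the 12 animals of the 2 lowest doses. No vehicle array entered, so the ranking in vehicle does not bear on this test. Limma called 5318 of 31042 probe sets (17.1%, with 8.31% higher and 8.82% lower), and 30.7% of the 9657 genes, 15.3% higher and 15.4% lower. Of the 50 brightest genes 30 were called, 26 lower and 4 higher, with a median log2 change of -0.11 against -0.01 for all 9657 genes. Of the 50 most variable genes 14 (12 lower and 2 higher) were called, against the background of 30.7%, with a median of -0.22.

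Among the bright genes, Car3, a carbonic anhydrase of hepatocytes, fell most, from 14.19 at the 2 lowest doses to 12.88 ± 1.01 (n = 6) at 485 mg/kg (log2 change -1.32 ± 0.21 SE, limma adjusted p = 2.26e-05). The protease inhibitor Pzp and the secreted ribonuclease Rnase4 had log2 changes of -0.46 and -0.41 (limma adjusted p = 1.58e-08 and 2.04e-08). Cyb5a, the cytochrome b5 electron donor, rose by 0.51 ± 0.03 SE, Cyp2c6v1 by 0.48 ± 0.04, Cyp3a2 by 0.29 ± 0.04 and the microsomal glutathione transferase Mgst1 by 0.12 ± 0.03 (limma adjusted p from 4.61e-13 to 0.00548). Of 24 plasma protein genes, 18 were called lower and 1 higher, against 15.4% and 15.3% of the 9657 genes. The falls of Ttr, Gc, Hpx, Serpina3l and Apoc1 lay between -0.09 and -0.12 and lost their calls under some alternatives (limma adjusted p up to 0.249).

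Among the variable genes, Stac3 fell from 9.45 to 6.96 ± 0.55 (log2 change -2.49 ± 0.33 SE, limma adjusted p = 8.07e-07). Stac3 is known from the contraction machinery of muscle. The kinase gene Nim1k fell too (log2 change -2.24), as did the taurine transporter Slc6a6 (-2.23), the growth arrest gene Rprm (-2.10), Egr1 (-1.90), Lox (-1.84) and Socs2 (-1.63), with limma adjusted p from 1.24e-06 to 0.00183. Fgf21 fell from 9.14 to 7.64 (limma adjusted p = 0.00477). Nim1k and Rprm ended at 4.29 and 4.58, below the array medians, where signal says little about expression. The imprinted RNA H19 fell as well (-0.75, limma adjusted p = 0.00672). Nfe2 (-1.36 ± 0.43 SE, limma adjusted p = 0.0248), Dusp1 (-1.13 ± 0.38, limma adjusted p = 0.0377) and Exph5 (-0.64 ± 0.20, limma adjusted p = 0.0263) lost their calls in 3, 10 and 3 of the 18 fits without 1 array. For Nfe2 these were 485 mg/kg replicates 1, 2 and 4, for Exph5 replicates 2, 4 and 5, and for Dusp1 replicates 2, 4, 5 and 6, replicates 2, 3 and 6 at 0.0485 mg/kg and 1, 2 and 3 at 0.485 mg/kg. Without 485 mg/kg replicate 2 their limma adjusted p was 0.0886, 0.0541 and 0.0815. Tsku, a secreted leucine-rich protein, rose by 1.32 ± 0.25 and Lcn2 by 1.32 ± 0.30 (limma adjusted p = 0.000232 and 0.00163).

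The clock genes that ordered the vehicle animals did not pass at this dose for the most part. Of the 18 clock genes above 5.32, 1 was called higher and 1 lower, and Dbp and Usp2 had log2 changes of 0.53 and 0.49 with limma adjusted p of 0.344 and 0.464. Of 29 interferon genes 3 were called higher and 0 lower, and of 16 cholesterol genes 1 was called in each direction. Drug metabolism genes, with a modest baseline spread, had 21 of 28 called higher and 3 lower. Beside each of these counts, the shares over the 9657 genes were 15.3% called higher and 15.4% called lower. Cyp1a1, at 4.93 at the 2 lowest doses and so below the array medians, rose to 10.85 ± 0.77 (limma adjusted p = 6.58e-18), and no exact fold is given. Abcc3 rose from 5.64 to 9.82 ± 0.15 (limma adjusted p = 3.24e-21).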

How the data were processed

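Per the labels' protocols, RNA of the left liver lobe with an integrity number of at least 7.0 was amplified with a 3' IVT kit and hybridized to 1 Affymetrix array per animal. Per the submitters' processing notes, the authors used RMA and the R package affy, versions not given, and deposited log2 values. RMA quantile normalizes probes between arrays, so a value is relative to a shared distribution. Arrays give no depth, and their number limits the precision.

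Of 31099 probe sets, 57 controls were left out. The platform table, which can be old, assigned 20826 of the 31042 others to 1 gene, 436 to several and 9780 to none. Of the single-gene probe sets 20758 matched RefSeq (GRCr8) by Entrez ID. A gene was represented by its probe set with the highest mean over 36 arrays. Levels and SDs were computed from the deposited log2 values. No detection call was made.

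Tests used limma 3.58.1 in R 4.3.3 with Benjamini-Hochberg adjustment over 31042 probe sets, called at an adjusted p under 0.05. Spread was tested on absolute deviations from the group median over 36 arrays, and 485 mg/kg against the 2 lowest doses over 30 dosed arrays. R/maanova, which the series names, was not used. Pairs were tested by permutation within dose groups (Python 3.11.15). Scripts were tested on simulated data. For 485 mg/kg against the 2 lowest doses, simulated log2 changes of 0.5 and 1 in 100 probe sets each were called for 92% and 98%, with 8 false calls of 198.

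Named genes were the 20 brightest, 20 most variable and 10 least variable genes, the 5 of lowest p in each direction of the spread test, a fixed panel, and 2 bright and 2 variable members of each gene list, plus others named where they share a pattern, chosen after their values were seen. The samples, lists and panel were chosen with earlier results of these data known. Nothing in the labels links the same replicate number across groups. The labels do not name litters or cages, so independence of the animals could not be checked. The p-values treat each animal as independent.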

Additional observations from a re-analysis of the deposited data

Results flagged for a closer look

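Within the 6 vehicle animals, 20 of 217 named genes (9.22%) had 1 animal beyond Dixon's critical gap. Chance flags about 1 in 20 groups, but many of these genes were chosen for their spread in the same 6 arrays, so the share cannot be read against that rate. Animal 3 was the outlying animal, at the high end, for Ephx2 (8.94), Pla2g2a (9.84), Lgals1 (8.50), Igfbp6 (7.63), Krt19 (6.78), Lyve1 (10.46) and Igf1 (13.86). Alb is listed by the same measure (15.07 in animal 3), but its 5 other animals share the value 15.05 and both equal array maxima, so this is no difference in expression. Animal 2 stood out for Ugt2b (4.95). Animal 5 was low for Nfe2 (4.55), Cfd (7.77) and Mt1 (7.01) and high for H19 (8.22). Animal 4 was low for Exph5 (5.07) and Vtn (13.74). Animal 1 was low for Retsat (10.09) and Pecam1 (6.27) and high for Acadm (12.80). Animal 6 was low for Nr1d1 (7.08) and high for S100a9 (6.43).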

How the results depend on the processing

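The 50 brightest genes kept 39 to 50 members under every alternative tried, the lowest with the mean of all probe sets of a gene. Of the 50 most variable genes, 31 were kept with the median absolute deviation and 21 with a vehicle mean of at least 8, a floor that many of them do not reach. Under the other alternatives 40 to 49 were kept. The count of the spread test (2) was 0 with quantile normalization, 1 with each array centred on its median, 1 with a filter on level, 1 with trend and robust settings and 4 with deviations from the group mean. It was 0 without each vehicle replicate in turn, from 0 to 0, and 3 with only the 3 lowest doses. The cause of these differences was not tested. The replicate block gave 2 calls of spread and 5265 calls at 485 mg/kg. Same-numbered arrays did not deviate together: of 90 pairs 19 correlated above 0.1, with a mean of 0.02. Calls at 485 mg/kg ran from 4536 to 5445. Of 1056 log2 changes refitted for 44 named genes, 39 lost their call and 0 reversed. The alternatives for pairs, chosen after seeing the data, gave 7 to 10 passing pairs. With only the 3 lowest doses Scd with Acly and Dbp with Nfil3 lost their calls. Leaving out 1 animal moved the SD of 70 of 217 named genes. With 6 animals an SD is imprecise, and signal below the array medians has no detection call.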

Other observations

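Chaperone genes of heat shock and endoplasmic reticulum folding, which help secreted proteins fold, varied modestly in vehicle liver, with a median SD of 0.16 over 23 genes. Animal 3 was highest for 12 of the 23 and animal 1 lowest for 12, against 13.7% and 21.1% of the 9657 genes, with median deviations of 0.15 and -0.14. Cell cycle genes were mostly dim, with 17 of 28 measured genes above 5.32. Animal 5 was highest for 7 of those 17, against 14.9% of the 9657 genes, among them the mitotic cyclin Ccnb2 (7.10), the phosphatase Cdkn3 (7.63) and the mitotic kinase Cdk1 (6.79). Genes of the urea cycle and amino acid breakdown were lowest in animal 5 for 11 of 24, against 15.6% of the 9657 genes.

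Control RNAs added during labelling varied more than most liver genes. The 4 poly-A controls had SDs of 0.30 to 0.66 between vehicle arrays, and Thr spanned 8.27 to 10.09. All 4 were lowest on the array of animal 3, and Dap, Lys and Phe were highest on that of animal 2 and Thr on that of animal 1. The hybridization controls BioB and Cre, added after labelling, had SDs of 0.11 and 0.03.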
